A study of Mus musculus with 2 samples.

Results

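Transcripts of 34 genes of DNA replication and the cell cycle were examined in livers with and without hepatocyte Lpcat3. The members were all probe sets that the platform annotation assigns, by gene symbol or gene ID, to exactly 1 of these genes. There were 80 such probe sets for 33 of the genes, of 34945 probe sets for 18193 genes in all. Ccnb1, the cyclin B1 gene, had no probe set annotated to it alone. The genes were divided by role into 16 replication genes, 6 genes of G1 cyclins and cyclin-dependent kinases (CDKs), 10 mitosis genes and 2 CDK inhibitors.

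Cells prepare for division in a fixed order. In G1, D-type cyclins with Cdk4 and E-type cyclins with Cdk2 release E2F transcription factors from the retinoblastoma proteins, and E2F factors then drive the replication genes. Mitosis genes are switched on later, largely through a promoter sequence known as the cell cycle genes homology region (CHR). Most adult hepatocytes rest outside the cycle but can re-enter it after loss of liver tissue, and many are polyploid.

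Total liver RNA came from male Lpcat3fl/fl mice, either without Cre (Flox/Flox) or with Albumin-Cre (L-Lpcat3 KO). All mice carried homozygous floxed Lpcat3 and were fed chow, and livers were taken at 12 weeks of age after a 6 hr fast. Albumin-Cre acts in hepatocytes. The paper names Kupffer and endothelial cells as cells without this transgene, and whether further liver cell types kept the gene was not determined. RNA of 5 mice was pooled for each genotype and each pool was read on 1 Affymetrix Mouse Genome 430 2.0 array. No test was therefore possible, no p-value is given and every ratio is a single value without a measure of variation among mice. Lpcat3 itself read 3310 with the gene intact and 1305 after Cre, or 2.54-fold lower. Whether its probes lie inside the deleted part was not determined, so this is a weak check of the genotype. Hepatocyte markers such as Alb were present as labelled, with all 10 above background.

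Signals are in MAS5 units, a background-corrected intensity on a linear scale. The floor was set at 76.4, the median non-control signal on the 2 arrays together, and lower signals were raised to it before ratios were taken. A gene was measured if its brightest probe set, the one with the highest mean log2 signal, exceeded the floor in at least 1 pool. Background was judged from 30 genes that belong to other tissues, whose 46 probe sets had signals with a median of 14.3 and exceeded the floor in 12.0% of readings. A log2 ratio is positive where L-Lpcat3 KO was higher. Paired signals are given with Flox/Flox first and L-Lpcat3 KO second.

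Most replication genes exceeded the floor in both pools of these resting livers, whereas most mitosis genes did not. Of the 16 replication genes, 14 exceeded the floor in both pools (87.5%), as did all 6 G1 cyclins and CDKs and both inhibitors. Of the 9 mitosis genes with a probe set, only Cdk1 did (11.1%), and a further 4 exceeded it in 1 pool. The share over all genes was 59.5% and that of genes of other tissues 13.3%. Single signals gave the same order: 63.4% of 82 replication signals lay above the floor, against 23.5% of 34 mitosis signals. The share was 55.5% over all probe sets with 1 gene symbol and 12.0% for genes of other tissues. Replication thus lay closer to the general share by single signals than by brightest probe sets. By the mean of probe sets, 9 replication genes exceeded the floor in both pools. These counts change with the floor. Lowered to the 25th percentile, it was exceeded in both pools by all 9 mitosis genes, and raised to the 75th, by only 3 replication genes. The mitosis genes also read higher than the genes of other tissues, with median signals of 65.1 and 65.9 against 36.7 and 29.3, and 5 of 9 against 7 of 30 exceeded the floor in at least 1 pool. Further lists of each kind were alike in this respect, with 32 of 36 other replication genes and 9 of 36 other mitosis genes above the floor in both pools. In whole liver RNA, fewer expressing cells and less RNA per cell cannot be told apart. A signal below the floor is not evidence that a transcript is absent.

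**Figure D1:**
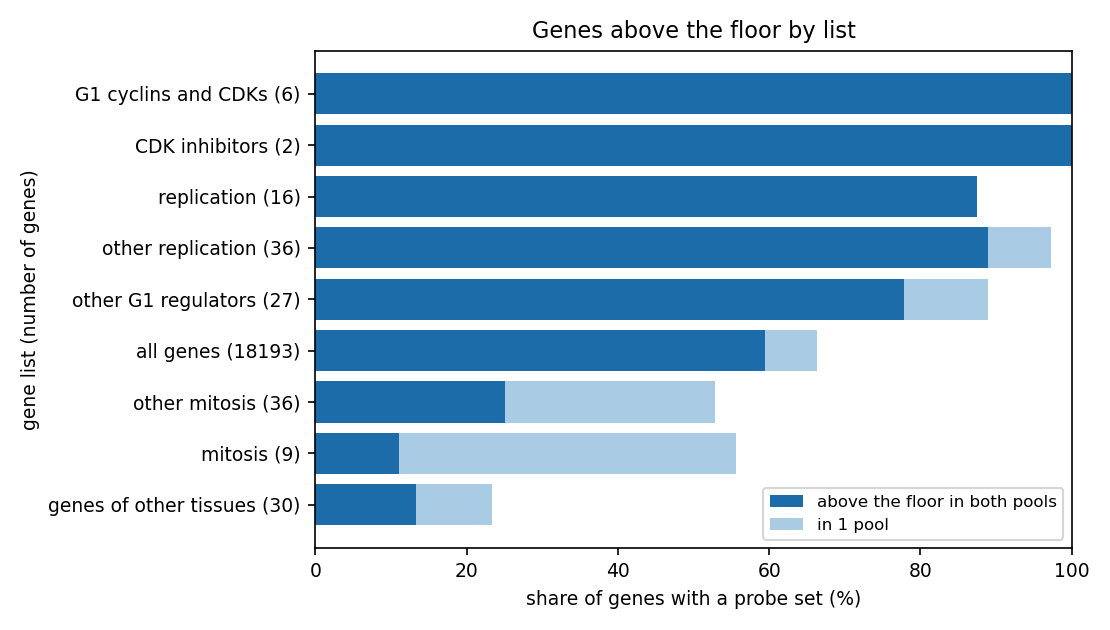
Share of genes with a probe set (x axis, percent) whose brightest probe set exceeded the floor in both pools (dark) or in 1 pool (light), for each gene list (y axis, number of genes in parentheses). In both pools replication genes reach 87.5%, mitosis genes 11.1% and genes of other tissues 13.3%, while in at least 1 pool 5 of 9 mitosis genes and 7 of 30 genes of other tissues exceed the floor.

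**Figure D2:**
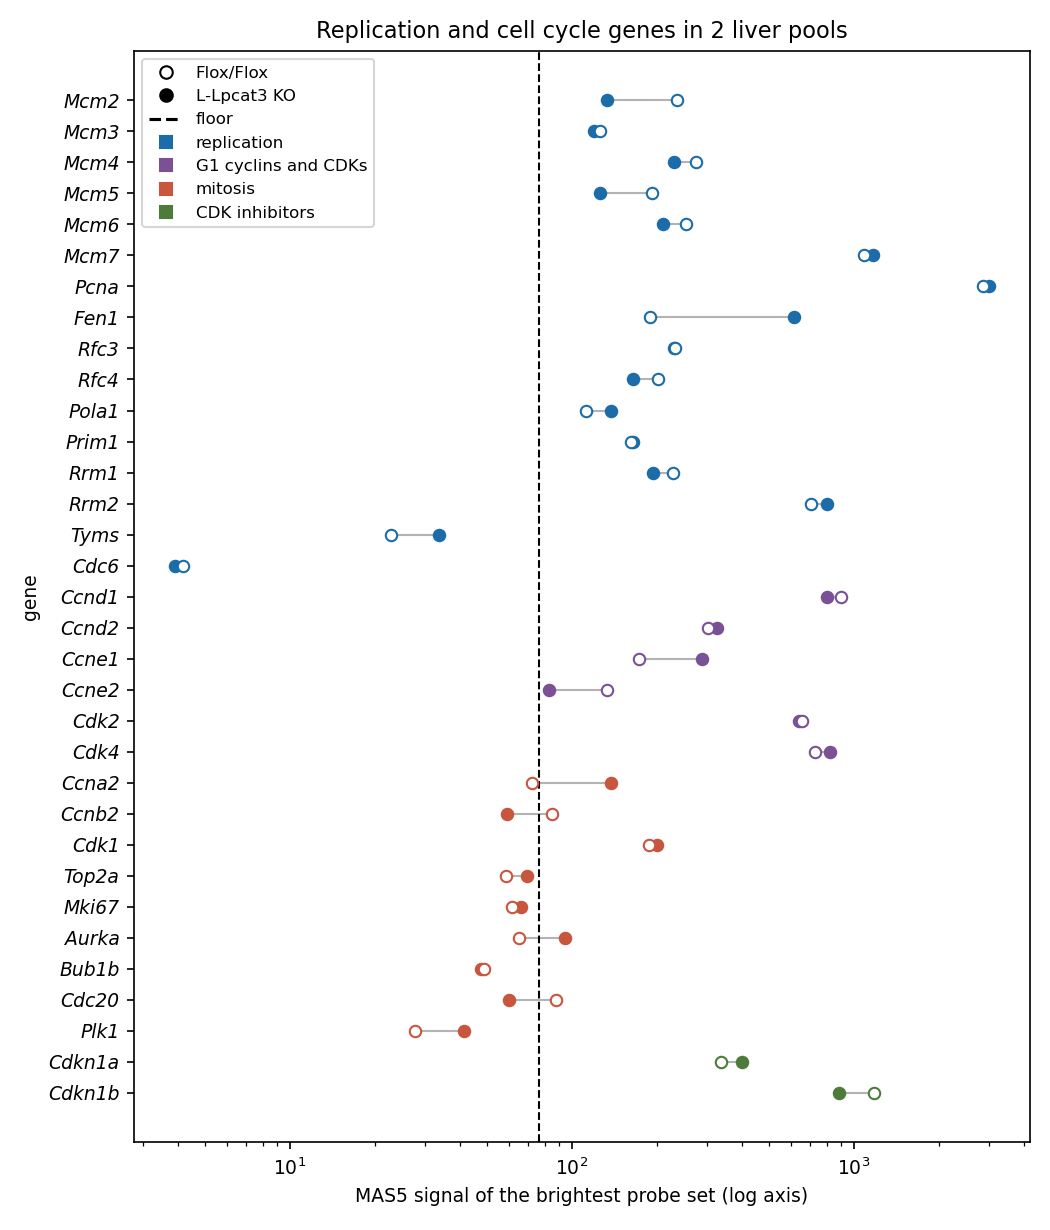
MAS5 signal of the brightest probe set of each of 33 genes (x axis, log scale; genes on the y axis) in Flox/Flox (open) and L-Lpcat3 KO (filled), with 1 pool per point. The dashed line is the floor of 76.4, and among mitosis genes only Cdk1 lies to its right in both pools. Signals of different probe sets are not on 1 common scale, so only the points of 1 gene are comparable.

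The promoters of replication and mitosis genes differed in sequence as well. RefSeq windows of GRCm38.p6, from 250 bases before to 50 bases after the annotated start, were given for 29 of the 34 genes. They were searched on both strands for E2F elements (TTTCCCGC, TTTCGCGC, TTTGCCGC or TTTGGCGC), CHR elements (TTTGAA or TTCGAA) and the CCAAT box (CCAAT). An E2F element was found in 7 of 15 replication genes (46.7%) and in 1 of 9 mitosis genes, against 2.60% of all 27025 genes with a window and 3.29% of protein-coding genes. A CHR element was found in 8 of 9 mitosis genes (88.9%) and 4 of 15 replication genes (26.7%), against 21.7% of all genes. In 7 of the 9 mitosis genes (77.8%) a CHR match began no more than 60 bases before the start or after it, against 6.79% of all genes. The limit of 60 bases was not part of the planned comparison. Over all 15 CHR matches in mitosis genes the median position was -71 from the start, with 7 matches in that stretch. CCAAT boxes were found in all 9 mitosis genes and in 11 of 15 replication genes, against 41.1% of all genes. The further lists gave 8 of 30 with an E2F element for replication and 22 of 30 with a CHR element for mitosis. Many of these genes are textbook targets of the corresponding factors, so the match is a property of the lists and not of the arrays. A match is a string of letters and not a shown binding site.

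Promoters of 2 replication genes (Mcm5, chr8:75109259-75109558, plus strand; Mcm6, chr1:128359656-128359955, minus strand) and of 3 mitosis genes (Cdk1, chr10:69352863-69353162, minus strand; Mki67, chr7:135716330-135716629, minus strand; Plk1, chr7:122159185-122159484, plus strand) are shown because they hold the elements that set these groups apart. Capitals mark the E2F elements in Mcm5 and Mcm6, the CHR elements in Mki67 and Plk1, and both kinds in Cdk1. Cdk1 has 1 E2F and 2 CHR elements, and a link between these elements and the signals was not tested.
Mcm5: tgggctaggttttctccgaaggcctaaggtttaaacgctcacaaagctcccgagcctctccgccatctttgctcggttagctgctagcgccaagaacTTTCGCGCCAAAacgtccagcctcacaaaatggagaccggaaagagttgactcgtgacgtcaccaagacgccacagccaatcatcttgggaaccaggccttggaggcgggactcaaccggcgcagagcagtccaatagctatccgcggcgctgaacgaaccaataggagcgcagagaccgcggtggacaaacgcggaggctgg
Mcm6: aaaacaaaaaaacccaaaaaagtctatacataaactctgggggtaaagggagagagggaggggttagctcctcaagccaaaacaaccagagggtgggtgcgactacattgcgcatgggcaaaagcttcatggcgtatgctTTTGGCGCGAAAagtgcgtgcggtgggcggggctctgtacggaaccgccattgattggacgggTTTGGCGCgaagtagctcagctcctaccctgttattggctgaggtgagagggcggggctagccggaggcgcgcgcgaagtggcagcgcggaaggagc
Cdk1: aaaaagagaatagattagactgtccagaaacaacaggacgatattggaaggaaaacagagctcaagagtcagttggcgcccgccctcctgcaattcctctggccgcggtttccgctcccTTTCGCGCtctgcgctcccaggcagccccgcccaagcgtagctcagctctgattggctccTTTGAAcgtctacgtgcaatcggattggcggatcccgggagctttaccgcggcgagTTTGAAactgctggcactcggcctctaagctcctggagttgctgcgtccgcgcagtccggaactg
Mki67: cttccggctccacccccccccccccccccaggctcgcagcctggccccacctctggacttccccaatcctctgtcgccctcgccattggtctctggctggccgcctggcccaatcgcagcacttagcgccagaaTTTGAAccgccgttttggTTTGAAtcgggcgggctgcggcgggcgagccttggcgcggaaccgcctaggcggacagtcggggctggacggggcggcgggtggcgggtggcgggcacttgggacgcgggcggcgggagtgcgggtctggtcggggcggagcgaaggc
Plk1: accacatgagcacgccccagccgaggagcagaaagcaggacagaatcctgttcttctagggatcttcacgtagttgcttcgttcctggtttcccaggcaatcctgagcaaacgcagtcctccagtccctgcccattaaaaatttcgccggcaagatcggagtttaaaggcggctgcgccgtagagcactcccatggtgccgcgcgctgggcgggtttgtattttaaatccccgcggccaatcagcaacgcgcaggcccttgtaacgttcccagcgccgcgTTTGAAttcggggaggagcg

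**Figure D3:**
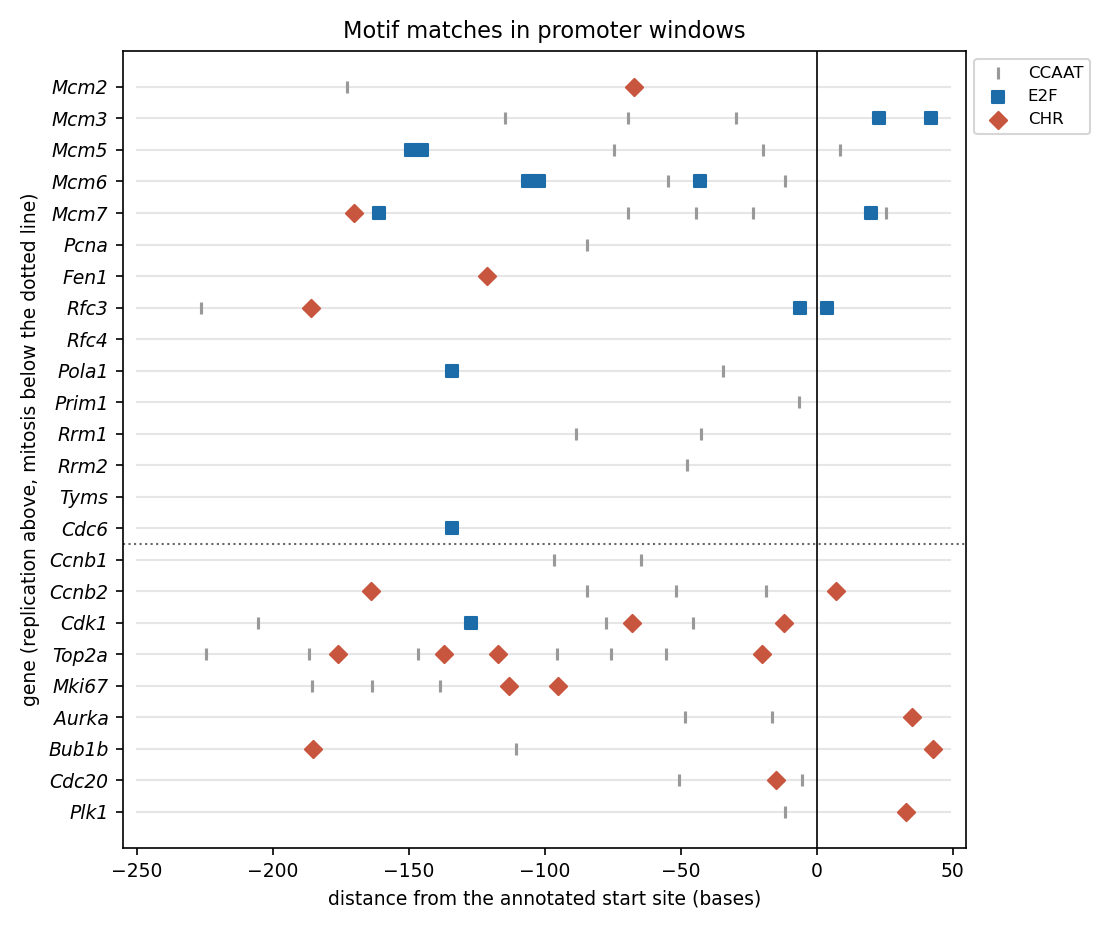
Matches to E2F elements (squares), CHR elements (diamonds) and CCAAT boxes (ticks) in the promoter windows of 24 replication and mitosis genes (y axis), by distance in bases from the annotated start site (x axis, 0 is the start); where a gene has several windows they are drawn on 1 line. E2F elements lie in 7 of 15 genes of the upper group and in Cdk1, and CHR elements in 8 of 9 genes of the lower group.

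The Mcm2 to Mcm7 genes encode the 6 subunits of the helicase that unwinds DNA at replication forks. Mcm2 was at 235 and 133 (1.76-fold lower), and Mcm5 was 193 and 126 (1.53-fold lower). Mcm4 (274 and 231), Mcm6 (254 and 209) and Mcm3 (126 and 119) lay within 1.5-fold, with log2 ratios of -0.25, -0.28 and -0.08. Thus 5 of the 6 helicase genes had lower signals in L-Lpcat3 KO by their brightest probe sets. Mcm7 was the other one, at 1083 and 1165 (log2 ratio 0.11). The other measured probe sets of Mcm7 gave -0.03, -0.22 and -0.02, all below 0, so its direction depends on the probe set taken. The second probe sets of Mcm4 (228 and 120, log2 ratio -0.92) and Mcm6 (161 and 89.5, -0.85) differed more than the brightest ones. Those of Mcm2 (81.8 and 62.8) and Mcm5 (81.3 and 46.3) were also lower, but fell below the floor in L-Lpcat3 KO, which limits their log2 ratios to -0.10 and -0.09. Of all 13 measured probe sets of the 6 genes, 12 were lower in L-Lpcat3 KO and 4 of them at least 1.5-fold. Over all measured probe sets, 49.3% were lower and 3.62% were lower by 1.5-fold. All 4 are of the _s_at or _x_at types, whose probes can match other transcripts. By their _at probe sets Mcm2, Mcm4, Mcm5 and Mcm6 had log2 ratios of -0.10, -0.25, -0.09 and -0.28, none of them 1.5-fold. This subgroup was singled out after its values were seen, and probe sets of 1 gene share their RNA, so they are not separate measurements of the pools.

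The remaining replication genes showed no common direction. Pcna, the sliding clamp of the replicative polymerases, differed little, at 2859 and 3010 (log2 ratio 0.07). Fen1, the flap endonuclease that trims Okazaki fragments, had the highest ratio of all members. Its brightest probe set read 190 and 614, or 3.24-fold higher. Its other probe set, however, was 158 and 120, with a log2 ratio of -0.40. The brightest probe set is again of the _x_at type and the other is not, so the direction of Fen1 is undetermined. The clamp loader subunits Rfc3 (232 and 230) and Rfc4 (201 and 165) had log2 ratios of -0.01 and -0.29. Their other probe sets gave -0.25 for Rfc3 and 0.03 for Rfc4. The polymerase alpha-primase genes Pola1 (112 and 137) and Prim1 (162 and 165) had log2 ratios of 0.29 and 0.03. The other probe set of Prim1 pointed the other way, at 107 and 60.9. It fell below the floor in L-Lpcat3 KO, which limits its log2 ratio to -0.49. With signals raised to the floor, none of these 4 genes reached 1.5-fold by a measured probe set.

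Ribonucleotide reductase makes the deoxynucleotides for replication from subunits encoded by Rrm1 and Rrm2. Rrm1 was 229 and 194 (log2 ratio -0.24), while its second probe set was higher in L-Lpcat3 KO (67.3, below the floor, and 117). Rrm2 was 702 and 804 (0.20), and its other probe sets gave 0.53 and 0.03, so all 3 were above 0. Tyms, encoding thymidylate synthase, was below the floor in both pools by all 4 of its own probe sets, the brightest at 22.9 and 33.6. A further probe set is annotated to Tyms together with the pseudogene Tyms-ps and read 425 and 431, so the gene is undetected only by the probe sets that name it alone. Cdc6, which loads the helicase at origins, was at 4.19 and 3.90, far below the floor.

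By their brightest probe sets the G1 genes all exceeded the floor, and their largest ratios were those of the E-type cyclins. Ccne1, encoding cyclin E1, was at 173 and 289 (1.68-fold higher) in its brightest probe set, and at 261 and 186 (log2 ratio -0.49) in the other. The mean log2 signals of these probe sets are nearly equal, so the direction of Ccne1 rests on which of them is taken. The brightest is an _at probe set and the other an _x_at one, and without the _s_at and _x_at types Ccne1 kept its log2 ratio of 0.74. Ccne2, encoding cyclin E2, had 1 probe set at 133 and 83.1 (1.61-fold lower). Ccnd1, the main cyclin D of liver, was 901 and 801 (log2 ratio -0.17), with -0.18 and, at a dimmer signal, -1.02 in its other probe sets. All 3 Ccnd1 probe sets were therefore lower in L-Lpcat3 KO. Ccnd2 was 303 and 327 (0.11), and its other 4 measured probe sets ranged from -0.71 to 1.05. The kinase genes Cdk2 (653 and 639, -0.03) and Cdk4 (728 and 821, 0.17) differed little, although the other probe sets of Cdk4 gave -0.34 and -0.21.

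Mitosis genes gave few measurable ratios. Cdk1, the kinase that drives entry into mitosis, was at 187 and 199 (log2 ratio 0.09). Ccna2, encoding cyclin A2, was below the floor in Flox/Flox and above it in L-Lpcat3 KO by both of its probe sets (72.3 and 137, and 75.1 and 111). It was thus at least 1.79-fold higher by the first and at least 1.46-fold higher by the second for this floor. Aurka, encoding a spindle pole kinase, was also above the floor only in L-Lpcat3 KO (65.1 and 94.3, at least 1.24-fold). In the opposite direction, Ccnb2, encoding cyclin B2, was above it only in Flox/Flox (84.8 and 58.6). Cdc20, an activator of the anaphase-promoting complex, was 87.5 and 59.6 by its brightest probe set and 44.9 and 103 by the next, in opposite directions. These 4 genes all lay close to the floor, so their order between the pools is weakly determined. The proliferation marker Mki67 (61.3 and 65.9), the topoisomerase gene Top2a (58.1 and 69.1), the checkpoint kinase gene Bub1b (48.6 and 47.7) and the polo-like kinase gene Plk1 (27.8 and 41.5) were below the floor in both pools. No ratio is given for them.

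The CDK inhibitors Cdkn1a and Cdkn1b encode p21 and p27, which restrain the cyclin-CDK complexes. Cdkn1a was at 339 and 399 (log2 ratio 0.24) and, by its second probe set, 111 and 212 (0.94). Both probe sets were higher in L-Lpcat3 KO, by 1.18-fold and 1.91-fold. Cdkn1b was 1179 and 887 (-0.41, 1.33-fold lower), and its other probe set was below the floor in both pools. Cdkn1a is a target of p53, and 14 other p53 targets were measured beside it. Their median log2 ratio was -0.25, with 9 of 14 below 0, none at least 1.5-fold higher and 2 lower. Over all measured genes 5944 of 12061 were below 0, with 4.0% at least 1.5-fold higher and 3.14% lower. The death receptor gene Fas was 765 and 367 (2.08-fold lower) and Zmat3 275 and 151 (1.82-fold lower), each by its 1 measured probe set, while the brightest targets Ei24 (0.03) and Trp53inp1 (-0.06) differed little.

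Replication genes had a lower median ratio than mitosis genes, by an amount that depended on the probe sets taken. The median log2 ratio was -0.05 over 14 measured replication genes and 0.09 over 5 measured mitosis genes, a difference of -0.14, beside 0.00 over all 12061 measured genes. The difference was -0.40 without the _s_at and _x_at types and -0.59 by the second brightest probe sets, with 2 mitosis genes left. Over probe sets the medians were -0.08 for 28 of replication genes and 0.30 for 7 of mitosis genes. Of these 7 mitosis probe sets, 6 exceeded the floor in only 1 pool, as did 4 of the 5 measured mitosis genes. Their ratios are limited by the floor, and the gene median of 0.09 is the ratio of Cdk1. The mitosis medians, and the differences taken from them, are therefore weakly determined. The median of the 6 G1 cyclins and CDKs was 0.04, but over their 15 measured probe sets it was -0.18, with 11 below 0. Of all measured probe sets, 49.3% were below 0. At a size of 1.5-fold, 3 of the 27 measured members were higher in L-Lpcat3 KO (Fen1, Ccne1 and Ccna2) and 3 lower (Mcm2, Mcm5 and Ccne2), where 4.0% and 3.14% of all measured genes were. By their other probe sets Fen1 (-0.40) and Ccne1 (-0.49) would be lower and within 1.5-fold. Ccna2 would stay higher, but by at least 1.46-fold and so short of 1.5-fold for this floor. The other probe sets of Mcm2 (-0.10) and Mcm5 (-0.09), limited by the floor, were also within 1.5-fold, and Ccne2 had no other. All 6 genes past 1.5-fold had a geometric mean signal below 386, the 75th percentile of signals, as did 20 of the measured members in all. In that range 8.31% of all measured genes were 1.5-fold higher and 6.18% lower. At or above it the shares were 0.925% and 0.967%, and the 7 members there (Mcm7, Pcna, Rrm2, Ccnd1, Cdk2, Cdk4 and Cdkn1b) ran from -0.41 to 0.20. By probe set, 6 of 53 measured were at least 1.5-fold higher and 7 lower, against 4.40% and 3.62% of all measured probe sets. With 1 pool per genotype these counts describe the arrays and not the genotypes.

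**Figure D4:**
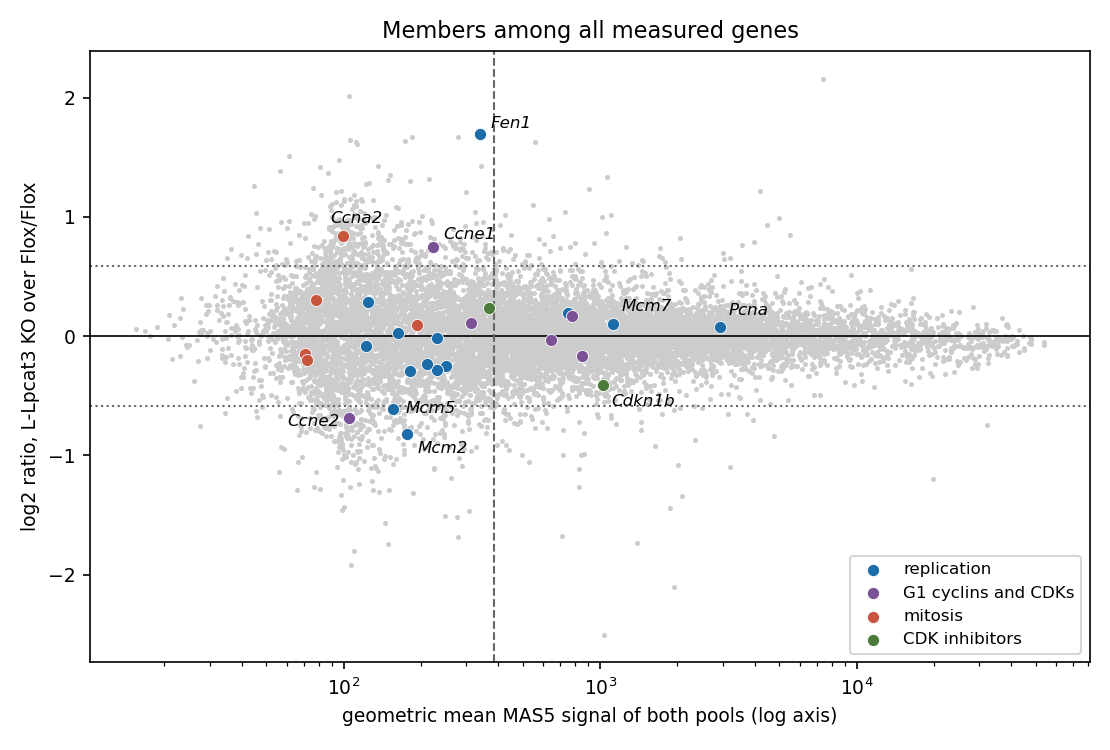
Log2 ratio between the genotypes (y axis, positive where L-Lpcat3 KO is higher) plotted over the geometric mean MAS5 signal (x axis, log scale) for all 12061 measured genes (grey) and the 27 measured members (coloured by role). Dotted lines mark 1.5-fold and the dashed line the 75th percentile of signals, 386. The 6 members past 1.5-fold lie to the left of the dashed line, where the grey cloud is wide.

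Probe sets of 1 gene often differed. They can read different transcripts of a gene or match other genes, and the part of these in the differences was not tested. Of 18 members with at least 2 measured probe sets, 9 had all of them on the same side of 0 (50%), against 41.5% of 5167 such genes overall. The 2 brightest measured probe sets of a member differed by a median of 0.52 on the log2 scale. The value was 0.21 over all genes and 0.36 over probe sets with a geometric mean signal below 386. Among the members past 1.5-fold, Fen1 and Ccne1 each had another probe set that pointed the other way, Mcm2, Mcm5 and Ccna2 had a further probe set in the same direction, and Ccne2 had no other.

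**Figure D5:**
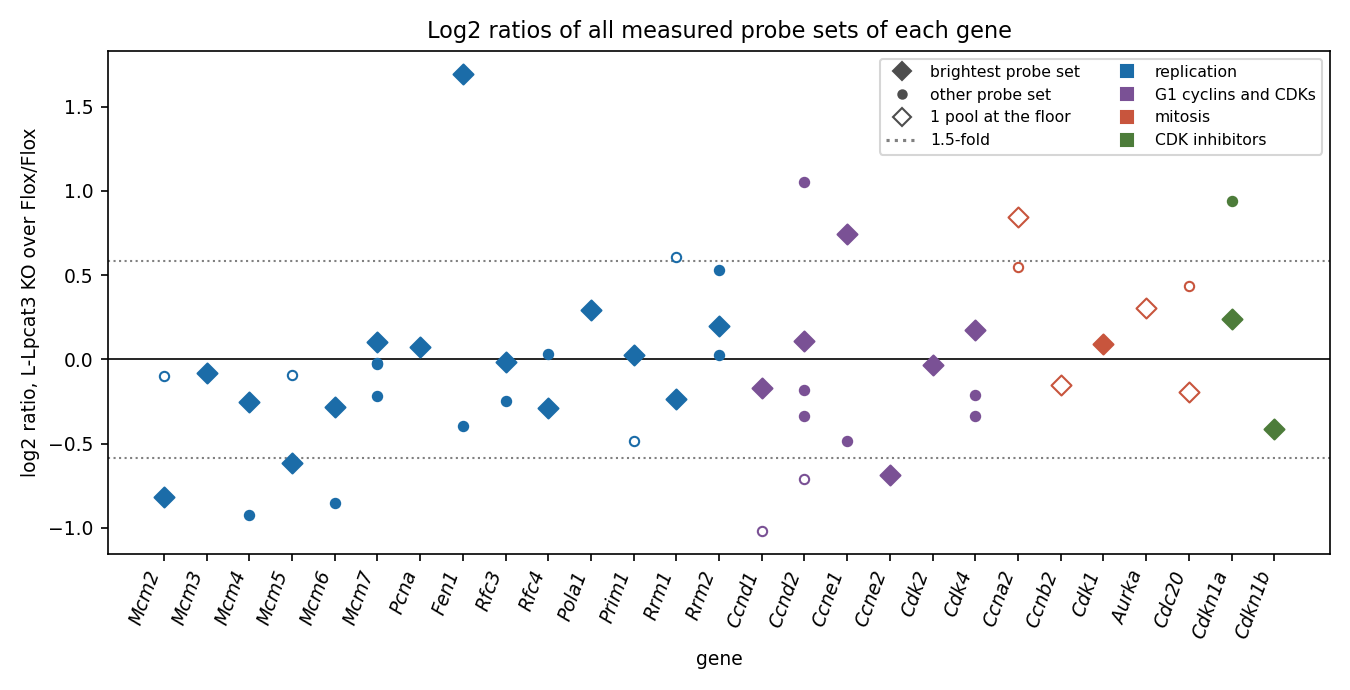
Log2 ratio between the genotypes (y axis, positive where L-Lpcat3 KO is higher) of each of 53 measured probe sets of 27 genes (x axis), with the brightest probe set as a diamond and others as circles. Open symbols have 1 pool at the floor and dotted lines mark 1.5-fold. Probe sets of Mcm2 to Mcm6 all lie below 0, whereas those of Fen1 (1.70 and -0.40) and Ccne1 (0.74 and -0.49) lie on both sides.

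With signals raised to the floor, no further replication or mitosis gene was 1.5-fold apart, while some G1 regulators were. Over all measured genes, 4.0% were at least 1.5-fold higher and 3.14% lower. None of 35 measured further replication genes was 1.5-fold apart, and 23 of them were below 0, with a median of -0.07 and a range of -0.37 to 0.15. Of all 12061 measured genes, 5944 were below 0. The brightest of these replication genes, Mcm10 (5619 and 6100) and the single-strand binding protein gene Rpa1 (1662 and 1750), had log2 ratios of 0.12 and 0.07. Their other measured probe sets pointed the other way, at -0.15 and -0.19. None of 19 measured further mitosis genes was 1.5-fold apart either (median 0.03), but 10 of them exceeded the floor in only 1 pool. For those the floor limits the ratio. Kif4, for example, was 15.5 and 103 (0.43), and Birc5 was 77.5 and 5.54 (-0.02). Pttg1, encoding securin, was 7749 and 8497 (0.13) and the checkpoint gene Bub3 1655 and 1831 (0.15). The other measured probe sets of Pttg1 (0.11 and 0.16) and Bub3 (0.35) were also above 0. Of 24 measured G1 regulators, 3 were at least 1.5-fold higher and 1 lower, with a median of -0.03, where 4.0% of all measured genes were higher and 3.14% lower. The growth regulator Myc was 327 and 538 (1.65-fold higher), and Cdc25a, the phosphatase that activates Cdk2, was 153 and 237 (1.55-fold higher, with 0.83 in its other probe set). The transcription factor gene E2f1, named after its values were seen, was above the floor only in L-Lpcat3 KO (53.8 and 142). Cks1b, a subunit of CDK complexes, was 2529 and 1670 (1.51-fold lower, with -0.45 in its other probe set). Its paralog Cks2 was 2639 and 2746 (0.06, with -0.01 in its other probe set). Cdc25a and Cks1b thus had the same direction in both of their measured probe sets.

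Markers of the cells that could contribute cycling transcripts were read on the same arrays. All 8 Kupffer cell markers were lower in L-Lpcat3 KO, with a median of -0.24 and none 1.5-fold apart. Of 6 endothelial markers, 5 were higher (median 0.22), and the 5 stellate cell markers had a median of 0.03. Among all 12061 measured genes, 5944 were lower and 6117 higher. Of 6 lymphocyte markers, only Ptprc (366 and 300) was above the floor in both pools, and Cd3e, Cd3g, Cd79a and Nkg7 were below it in both. Of 4 erythroid markers, Alas2 (2362 and 2772) and Klf1 (351 and 367) were above the floor in both pools, and Hba-a1 and Epb42 were below it. Of 4 bile duct markers, Sox9 was above the floor in both pools (162 and 77.6), Epcam and Krt7 were above it only in L-Lpcat3 KO, and Krt19 was below it. The part of these cell types in the signals of the cycle genes was not tested.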

How the data were processed

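RNA of 5 livers per genotype was pooled and hybridized to 1 array per genotype, giving 2 arrays without replicates. The deposited values are linear signal intensities, named MAS5 in the authors' processing notes, and the methods name GeneSpring GX without a version. Without its lowest and highest 2% of signals, each array had a mean of 500.0, so both were scaled alike before deposit. Of 45101 probe sets, 64 were controls, 34945 had 1 gene symbol (updated by gene ID to RefSeq of GRCm38.p6), 932 listed several genes and 9160 were unnamed here.

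No further scaling was applied. Floor, gene value and 1.5-fold size are given with the results. Every member was described. From each further list the 2 brightest genes were named, with up to 4 that were at least 1.5-fold apart and above the floor in both pools. The members, lists, floor and motifs were chosen with earlier results of these data known, so patterns seen before are not independent evidence. Scaling, floor and gene value were each varied. The scripts were tested on simulated data. Software was matplotlib 3.10.9, statsmodels 0.14.6, pandas 2.3.3 and numpy 2.4.6 under Python 3.11.15. Depth has no meaning for arrays; the number of arrays limits the precision.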

Additional observations from a re-analysis of the deposited data

How the results depend on the processing

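Other choices of scaling, floor and gene value were tried 11 times; without a floor no count above it exists. With the floor at the 75th percentile, 3 replication genes and 0 mitosis genes exceeded it in both pools, 1 member was 1.5-fold higher and 0 lower, and the replication median was 0.15. With the floor at the 25th percentile all 9 mitosis genes exceeded it. Taking the mean of probe sets left 9 replication genes above the floor. The second brightest probe sets left 7 and 0, with a mitosis median of 0.49 over 2 genes and a replication minus mitosis difference of -0.59, and turned Fen1 (-0.40) and Ccne1 (-0.49). Without _s_at and _x_at probe sets 1 member was lower, the mitosis median was 0.30, the difference -0.40, and Fen1 again -0.40. A pseudocount in place of the floor left 1 member higher and 0 lower. The cause of these shifts was not tested. The other 57 values for these counts and medians stayed within 1.5 times or 0.1 on the log2 scale. Median centring lowered the share of genes higher among all 1.5-fold apart from 56.0% to 41.0%. No paired analysis was possible because each genotype is 1 pool.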

Other observations

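The E2F transcription factor genes, chosen after their values were seen, were measured beside the replication genes. E2f7 and E2f8, which encode repressive members linked to hepatocyte polyploidy, had signals of 128 and 164 (log2 ratio 0.36) and of 501 and 742 (0.57), Flox/Flox first. E2f4 was 126 and 167 (0.41), while E2f3 (0.06), E2f5 (-0.17) and E2f6 (-0.04) differed less, and neither pool exceeded the floor for E2f2 (16.0 and 46.3). The retinoblastoma gene Rb1 was 783 and 632 (-0.31) and Tfdp1, encoding a dimerization partner of E2F factors, 1255 and 942 (-0.41). Their relatives differed less, with log2 ratios of -0.03 for Rbl1, -0.10 for Rbl2 and -0.19 for Tfdp2. E2f1, given above, was the member of the family past 1.5-fold (53.8, below the floor, and 142). Apart from E2f1, and from E2f2, which has no ratio, all of these lay within 1.5-fold, and each value is from 1 pool.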
